A study of Silurus meridionalis with 18 samples.

Results

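The genes described here move ions, water and acid-base equivalents across membranes. They are the Na,K-ATPase, the V-type proton ATPase, the carbonic anhydrases, the aquaporins, and the carriers of solute carrier (SLC) families 4, 9, 12 and 26. A gene was taken as a member when the protein name in the deposited annotation held one of the product names "sodium/potassium-transporting ATPase", "V-type proton ATPase", "carbonic anhydrase", "aquaporin", "sodium/hydrogen exchanger" or "solute carrier family" 4, 9, 12 or 26. That choice used names and no measured value, but it was made with earlier results of these data known. In the carrier names the number had to be followed by a space, so names with a comma there were left out. No name with family 9 met this, and all SLC9 members are named sodium/hydrogen exchanger. The choice gave 93 of the 25390 genes in the table. They were 24 genes of the V-type proton ATPase, 19 carbonic anhydrases, 18 aquaporins, 11 SLC12, 9 SLC9, 3 SLC4 and 3 SLC26 carriers, and 6 genes named for the Na,K-ATPase.

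The data were polyA RNA sequencing libraries of 18 tissues of adult southern catfish, Silurus meridionalis, taken from a benthic environment, with 1 library per tissue. The tissues were Gill, Maxillary_barbel, Mandibular_barbel, Skin, Kidney, Head_kidney, Spleen, Intestine, Liver, Pancreas, Brain, Telecephlon, Olfactory_bulb, Retina, Heart, Muscle, Ovary and Testis, spelled as the labels spell them. The labels give no strain, treatment, sex or exact age, and they do not say how many fish were sampled. Ovary and Testis are both present, so the tissues did not all come from 1 fish. Levels are the authors' FPKM, that is, fragments scaled to the length of the gene and the depth of the library. With 1 library per tissue there is no spread between replicates, so every difference below compares libraries, carries no p-value, and cannot be separated from differences between the fish sampled. Fewer cells of a type and less RNA per cell cannot be told apart in such bulk tissue.

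Each family has a known task. The Na,K-ATPase exports sodium and imports potassium through a catalytic alpha subunit that needs a beta subunit to reach the membrane, and small FXYD proteins adjust it. The V-type proton ATPase pumps protons into vesicles and, at some cell surfaces, out of the cell, through a cytosolic V1 part and a membrane-bound V0 part. Carbonic anhydrases interconvert carbon dioxide and bicarbonate, aquaporins pass water or glycerol, and the SLC families exchange or cotransport bicarbonate, protons, chloride, sodium and potassium. In freshwater fish the gill takes up salt and the kidney makes a dilute urine by recovering it.

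The summed level of the markers chosen for each tissue was highest in the tissue so labelled, except for synaptosomal-associated protein 25, which was 803.7 FPKM in Olfactory_bulb against 1434 in Telecephlon, and keratins, which were highest in Maxillary_barbel, followed by Mandibular_barbel and then Skin. Depth, estimated from the most common step of the values, was 6330000 fragments in Skin and 9550000 in Muscle. It was 20200000 to 22600000 in the barbels, Retina, Telecephlon, Olfactory_bulb and Intestine, and 48200000 to 51000000 in the other 10 libraries. Hemoglobin and alpha-globin genes took 33.9% of the summed FPKM in Head_kidney and 21.6% in Kidney and in Spleen, and genes named as mitochondrially encoded took 55.8% in Testis, which lowers the share left for every other gene there. The same holds for Pancreas, where trypsinogen genes summed to 209966 FPKM and chymotrypsin genes to 64926, of 1006540 in the library.

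Of the 93 genes, 89 reached an FPKM of 1 in at least 1 tissue (95.7%, against 87.4% of all genes), and 76 reached 10 (81.7%, against 60.2% of all genes). The 4 that did not were V-type proton ATPase subunit C 1-B-like, aquaporin-4-like, aquaporin 10a and 1 of 2 genes named aquaporin 8a tandem duplicate 1 (C0J45_13105), at no more than 0.484 FPKM anywhere. Only 6 genes reached an FPKM of 1 in every tissue (6.45%, against 10.2% of all genes): 5 subunits of the V-type proton ATPase and 1 carbonic anhydrase. The term tissue-enriched is used for an FPKM of 10 or more in 1 tissue whose FPKM + 1 reached 5 times the value in any other. This held for 18 members (19.4%, against 7.51% of all genes). Kidney held 6 of them, where 0.280% of all genes were enriched, Retina 5 (1.21%), Gill 2 (0.461%), Intestine 2 (0.650%), and Brain, Liver and Ovary 1 each (0.209%, 0.965% and 2.02%). The median of tau, an index that is 0 for an even gene and 1 for a gene in a single tissue, was 0.73 over the 89 members, against 0.61 over all genes.

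**Figure D1:**
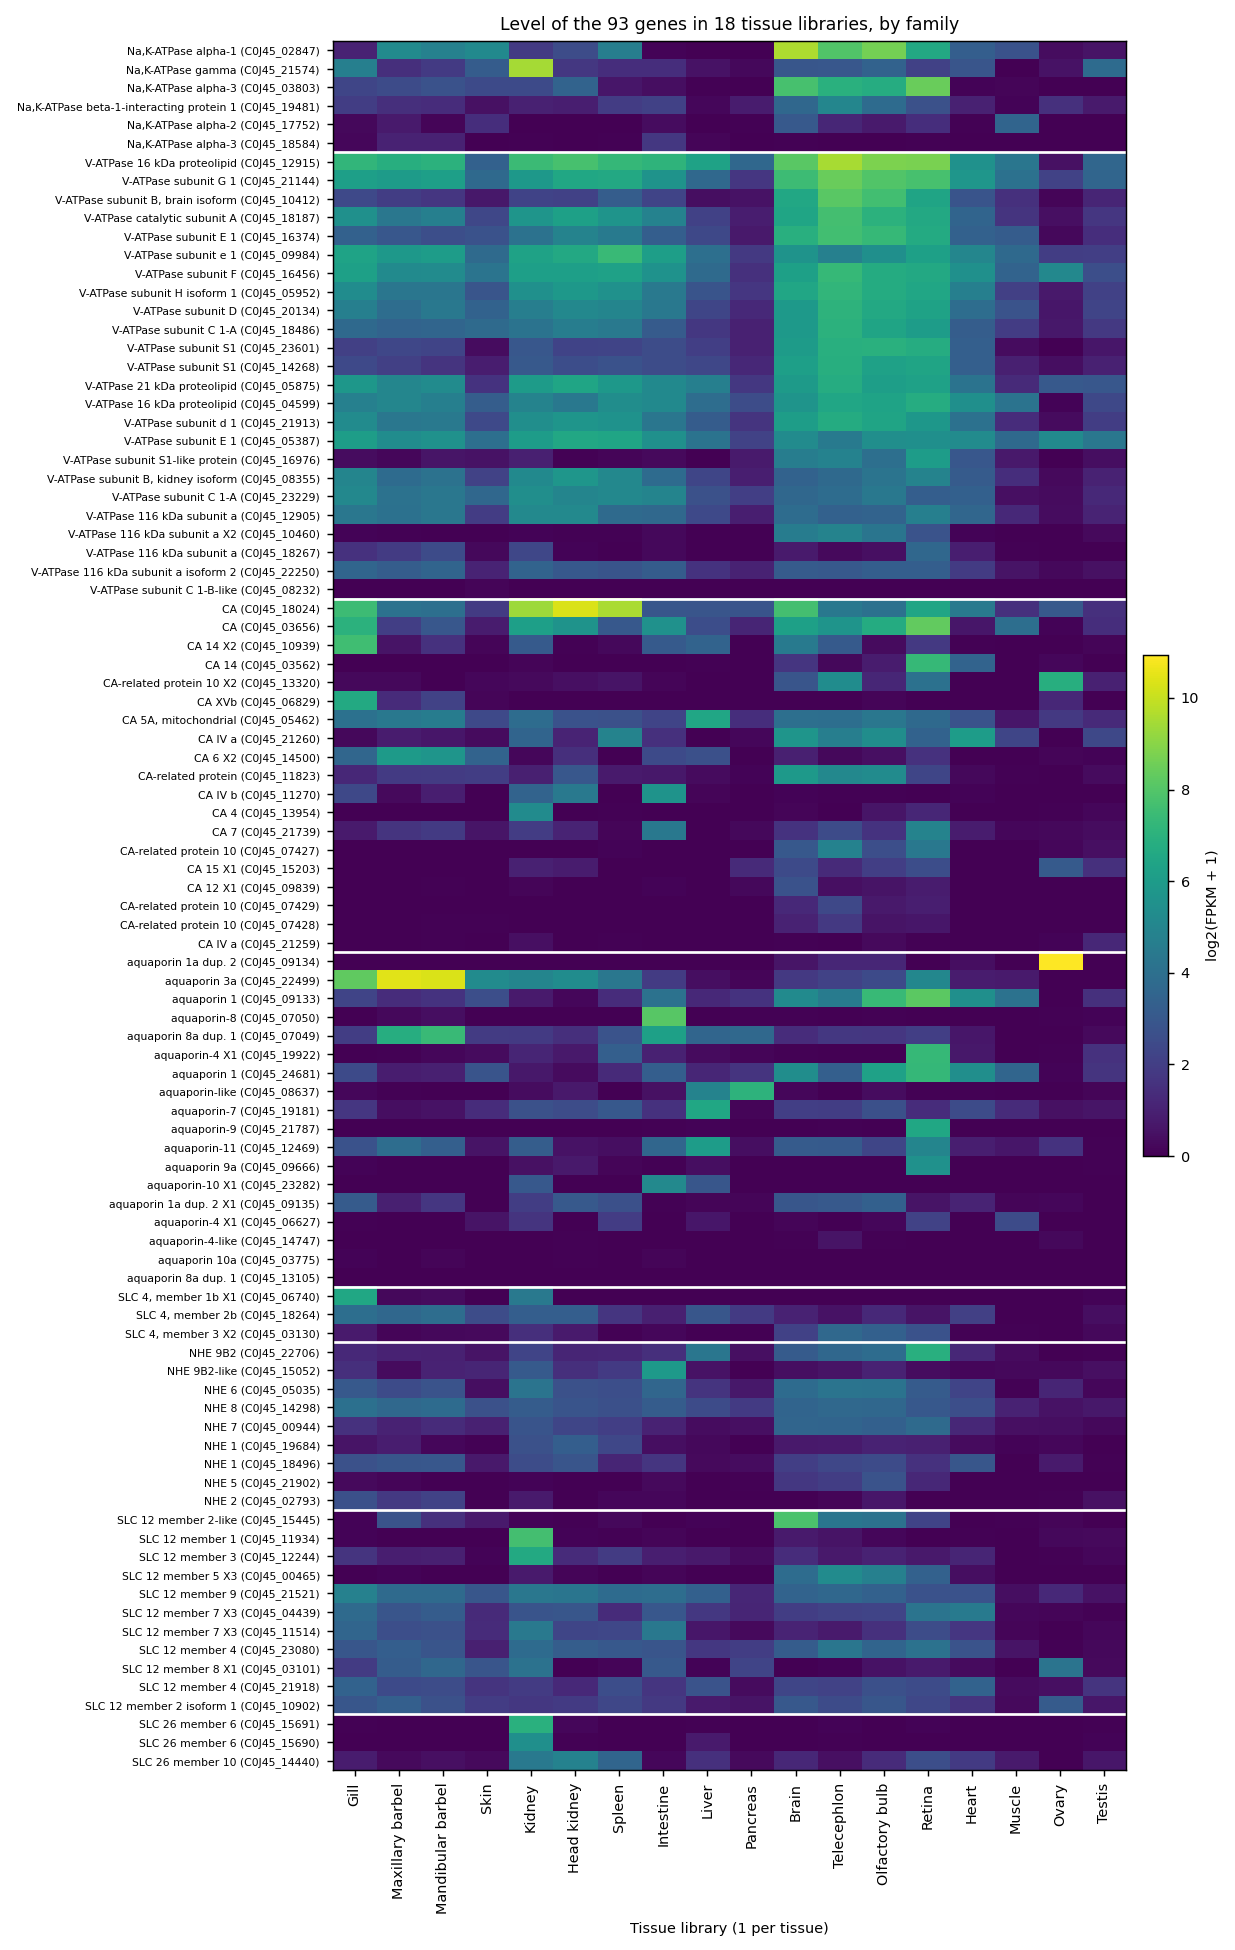
The level of each of the 93 genes (rows, grouped by family with white lines between families, each with its gene identifier) in each of the 18 tissue libraries (columns), as log2(FPKM + 1). The subunits of the V-type proton ATPase run across most columns and are brightest in Telecephlon, while aquaporins, SLC26 and several carbonic anhydrases are bright in 1 or a few columns.

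Among the Na,K-ATPase genes, 2 alpha subunits were highest in nervous tissue. The gene named alpha-1 (C0J45_02847) stood at 777 FPKM in Brain, 401 in Olfactory_bulb, 251 in Telecephlon and 97.4 in Retina, with a median of 7.13 over the 18 tissues. It was low where ion uptake takes place, with 1.04 FPKM in Gill, 2.60 in Kidney and 0.0749 in Intestine. The gene named alpha-3 (C0J45_03803), whose mammalian counterpart is the neuronal catalytic subunit, stood at 347 FPKM in Retina, 216 in Brain, 121 in Telecephlon and 109.98 in Olfactory_bulb, with no other tissue above 10.2. A second alpha-3 gene (C0J45_18584) did not exceed 2.41 FPKM, in Intestine. Alpha-2 (C0J45_17752), in mammals the form of glia and muscle, was at 10.5 FPKM in Muscle and 7.28 in Brain.

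The gamma subunit (C0J45_21574; chromosome 25, 15586712 to 15595392, minus strand), a short protein carrying the FXYD motif in the deposited annotation, was the tissue-enriched member of this group. It stood at 709.8 FPKM in Kidney, against 25.4 in Gill, 13.3 in Testis and 9.81 in Olfactory_bulb, and the other tissues were at 8.20 or less. In FPKM + 1, Kidney was 27.0 times Gill. This gene made up 98.9% of the group's summed FPKM in Kidney, so the Kidney total of 717.9 held almost no catalytic subunit. The last gene of the group, a protein named for its interaction with beta-1 (C0J45_19481), is not a pump subunit, and it was highest in Telecephlon at 31.9 FPKM.

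The product names split the pump. Genes of these families whose annotation is worded otherwise number 41, and they were listed after the data had been seen. A comma after the family number counted as other wording. Of these, 13 belong to the Na,K-ATPase, and 9 of the 13 were highest in Brain, Telecephlon or Retina, 3 in Gill and 1 in Heart. Of all genes that reached 10 FPKM, 33.0% were highest in Brain, Telecephlon, Olfactory_bulb or Retina, 10.7% in Gill and 5.52% in Heart. Among the 9, C0J45_20853 did not exceed 8.88 FPKM. Like-named models among the 9 (beta 2b C0J45_21513 and C0J45_21514, beta 2a C0J45_15009 and C0J45_24789) may be parts of the same gene. Alpha 1a tandem duplicate 4 (C0J45_20890) stood at 535 FPKM in Gill, 272 in Kidney and 91.9 in Intestine. A short gene model named Na+/K+-ATPase alpha 1 subunit (C0J45_25002), on an unplaced scaffold, stood at 322 FPKM in Gill, 41.1 in Kidney and 31.5 in Mandibular_barbel. Beta 1a (C0J45_00761) stood at 826 FPKM in Gill, 473 in Kidney and 324 in Intestine. Alpha 3a (C0J45_23336) was highest in nervous tissue, with 519 FPKM in Telecephlon and 338 in Olfactory_bulb. It also stood at 61.2 FPKM in Maxillary_barbel and 60.5 in Mandibular_barbel. With these genes added, the summed FPKM of all genes in this group was 2522 in Brain, 2067 in Telecephlon, 1855 in Olfactory_bulb, 1801 in Gill, 1656 in Retina and 1555 in Kidney. For the members alone it was 1018 in Brain, 33.6 in Gill and 717.9 in Kidney. The members alone thus hold alpha subunits high in nervous tissue and the kidney gamma subunit. They leave out alpha 3a and the alpha and beta genes with the highest levels in Gill. Both sums mix alpha, beta and gamma genes with the interacting protein C0J45_19481, so they do not measure the catalytic subunit. The gamma subunit alone stood at 709.8 FPKM in Kidney and 25.4 in Gill. Alpha 1 copies named alike can share reads, and the level of each single copy is uncertain. The model of C0J45_20890 has 69 coding exons and 10626 coding bp, against 21 and 3096 for alpha 1 gene C0J45_20892 on the same chromosome. It may thus hold more than 1 gene copy. FPKM is scaled to length, so the order of Brain, Gill and Kidney in these sums depends on how the models are drawn.

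**Figure D2:**
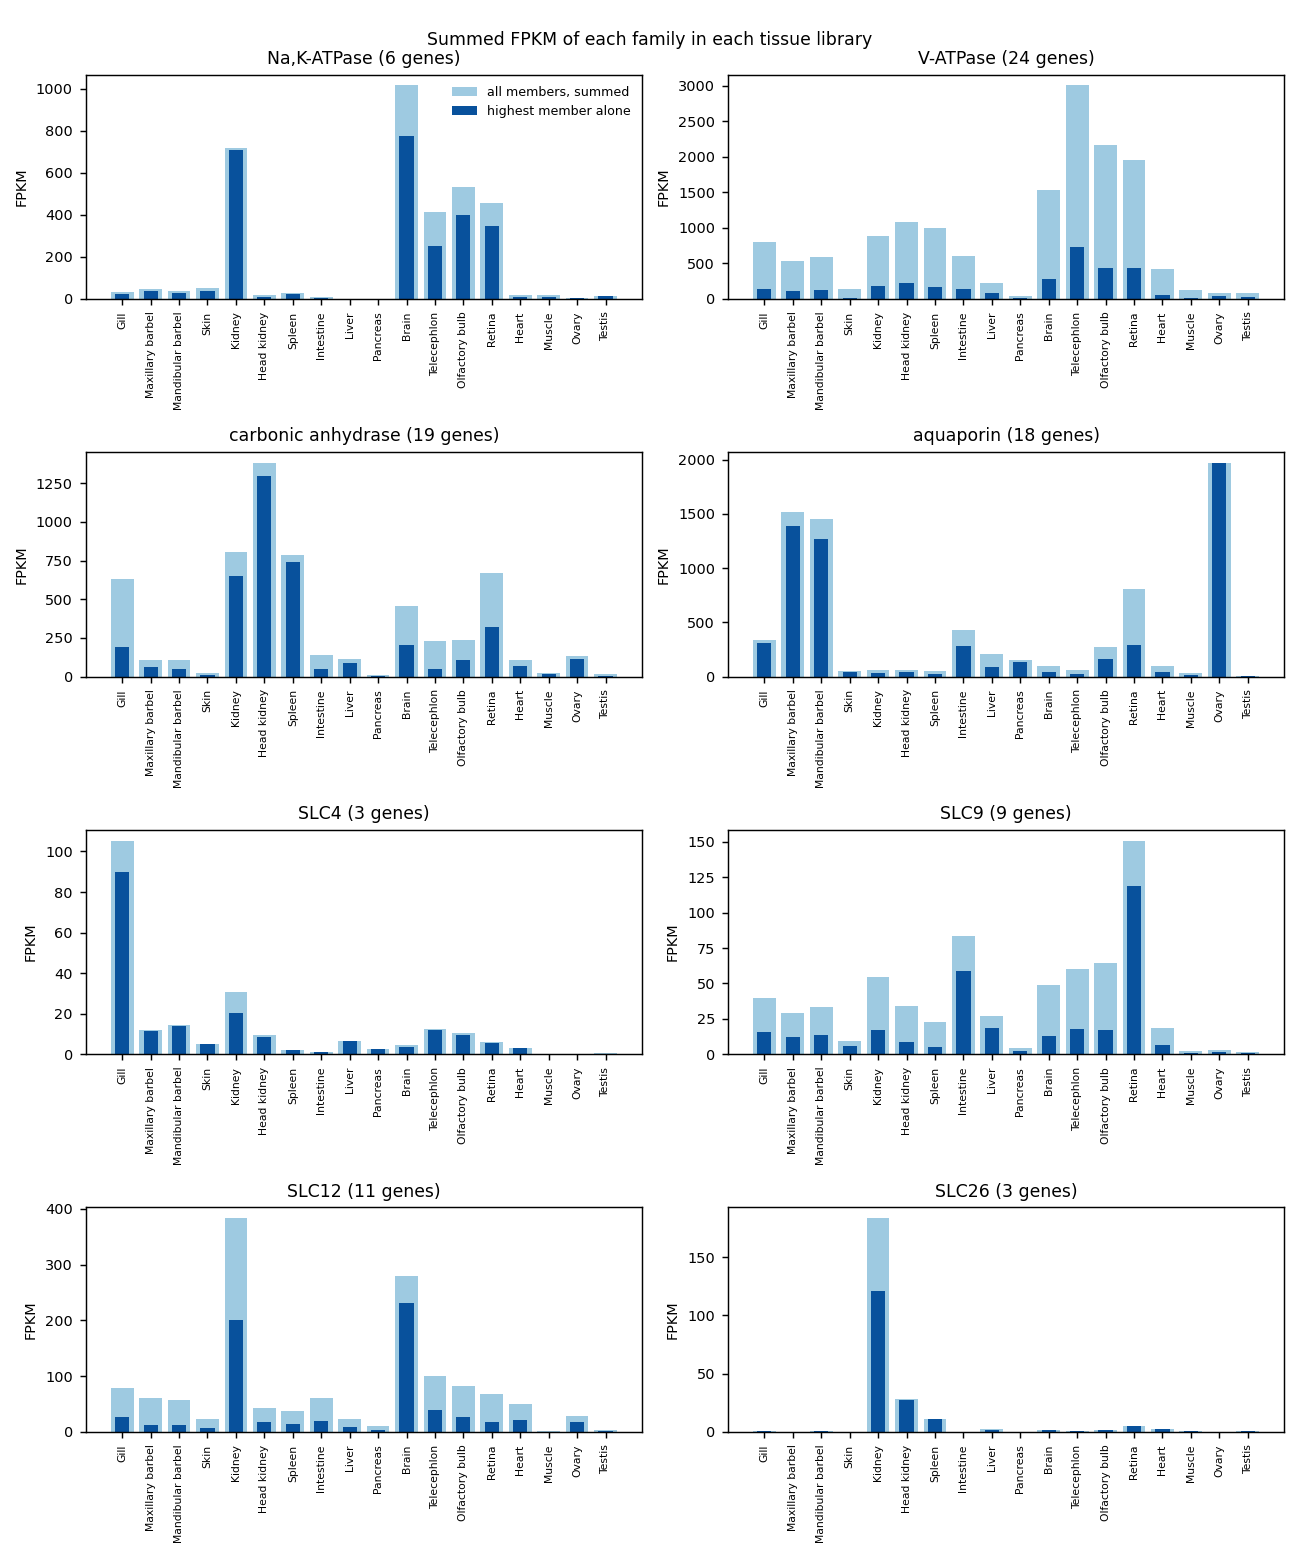
Summed FPKM of the members of each family (light bars) and FPKM of the single highest member (dark bars) in each tissue library, 1 panel per family, every axis starting at 0. Brain leads the Na,K-ATPase at 1018, Telecephlon the V-type proton ATPase at 3008, Head_kidney the carbonic anhydrases at 1382, Ovary the aquaporins at 1969, Gill SLC4 at 105, Retina SLC9 at 151, and Kidney SLC12 at 384 and SLC26 at 184.

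The V-type proton ATPase was the most evenly spread family, and its level followed the nervous tissues. Its 24 genes summed to 3008 FPKM in Telecephlon, 2163 in Olfactory_bulb, 1959 in Retina and 1529 in Brain. Head_kidney followed at 1079, Spleen at 993.4, Kidney at 880.1 and Gill at 797.1, and the lowest totals were 87.9 in Ovary, 85.0 in Testis and 47.1 in Pancreas. Of the 23 genes that reached 10 FPKM, 13 were highest in Telecephlon, 3 in Retina, 2 each in Head_kidney and Kidney, and 1 each in Gill, Olfactory_bulb and Spleen. Of all genes that reached 10 FPKM, 13.2% were highest in Telecephlon, more than in any other tissue, 8.57% in Retina, 5.75% in Head_kidney, 3.69% in Kidney, 10.7% in Gill, 6.69% in Olfactory_bulb and 6.96% in Spleen. The 4 tissues Telecephlon, Olfactory_bulb, Retina and Brain together led 33.0% of them. None was tissue-enriched, and the median tau was 0.41. The neuronal marker synaptosomal-associated protein 25 put the same 4 tissues first, at 1434 FPKM in Telecephlon, 803.7 in Olfactory_bulb, 696.9 in Retina and 665.6 in Brain, against 10.04 or less elsewhere. The part of neuron content in these totals was not tested.

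Telecephlon also led the highest subunits of both parts. In the V0 part, the 16 kDa proteolipid (C0J45_12915), which forms the proton-carrying ring, was the highest member at 728 FPKM in Telecephlon, 435 in Olfactory_bulb and 433 in Retina, with a median of 135. In the V1 part, subunit G 1 (C0J45_21144), part of the stalk, stood at 344 FPKM in Telecephlon and 249 in Olfactory_bulb. The catalytic subunit A (C0J45_18187) stood at 202 FPKM in Telecephlon, 129 in Olfactory_bulb and 95.2 in Retina. Across the 18 libraries, the log2(FPKM + 1) of each of 23 subunits had a Pearson correlation of 0.42 to 0.94 (median 0.85) with the mean of the subunits found in every tissue, a description over points that share library depth and composition. Catalytic subunit A was closest to that mean, and the S1-like protein (C0J45_16976), highest in Retina at 65.7 FPKM, was farthest from it.

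In the pairs of genes for subunits B, E 1 and C 1-A, 1 copy was the higher in Brain, Telecephlon, Olfactory_bulb and Retina, and the other in most further tissues. The brain isoform of subunit B (C0J45_10412), a nucleotide-binding subunit, stood at 282 FPKM in Telecephlon, 199.8 in Olfactory_bulb, 92.98 in Brain and 83.2 in Retina, with no other tissue above 8.27. The kidney isoform (C0J45_08355) stood at 52.8 FPKM in Head_kidney, 35.9 in Kidney, 33.1 in Spleen and 30.9 in Gill. The brain isoform was the higher of the pair in 6 tissues, Muscle and Testis among them, and the kidney isoform in 12. For subunit E 1, C0J45_16374 stood at 198 FPKM in Telecephlon, 158 in Olfactory_bulb and 119 in Brain, while C0J45_05387 stood at 94.4 in Head_kidney, 84.7 in Spleen and 68.1 in Gill. The first was the higher in 4 tissues and the second in 14. In the pair named subunit C 1-A, C0J45_18486 stood at 131 FPKM in Telecephlon and C0J45_23229 at 41.9 in Kidney. The first was the higher in 8 tissues, which included Muscle, Ovary, Skin and Testis, and the second in 10. The 16 kDa proteolipid pair showed no such split, and C0J45_12915 was above C0J45_04599 in all 18 tissues. The 116 kDa subunit a isoform X2 (C0J45_10460) was a nervous-tissue gene throughout, at 28.4 FPKM in Telecephlon, 23.4 in Brain and 18.1 in Olfactory_bulb.

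**Figure D3:**
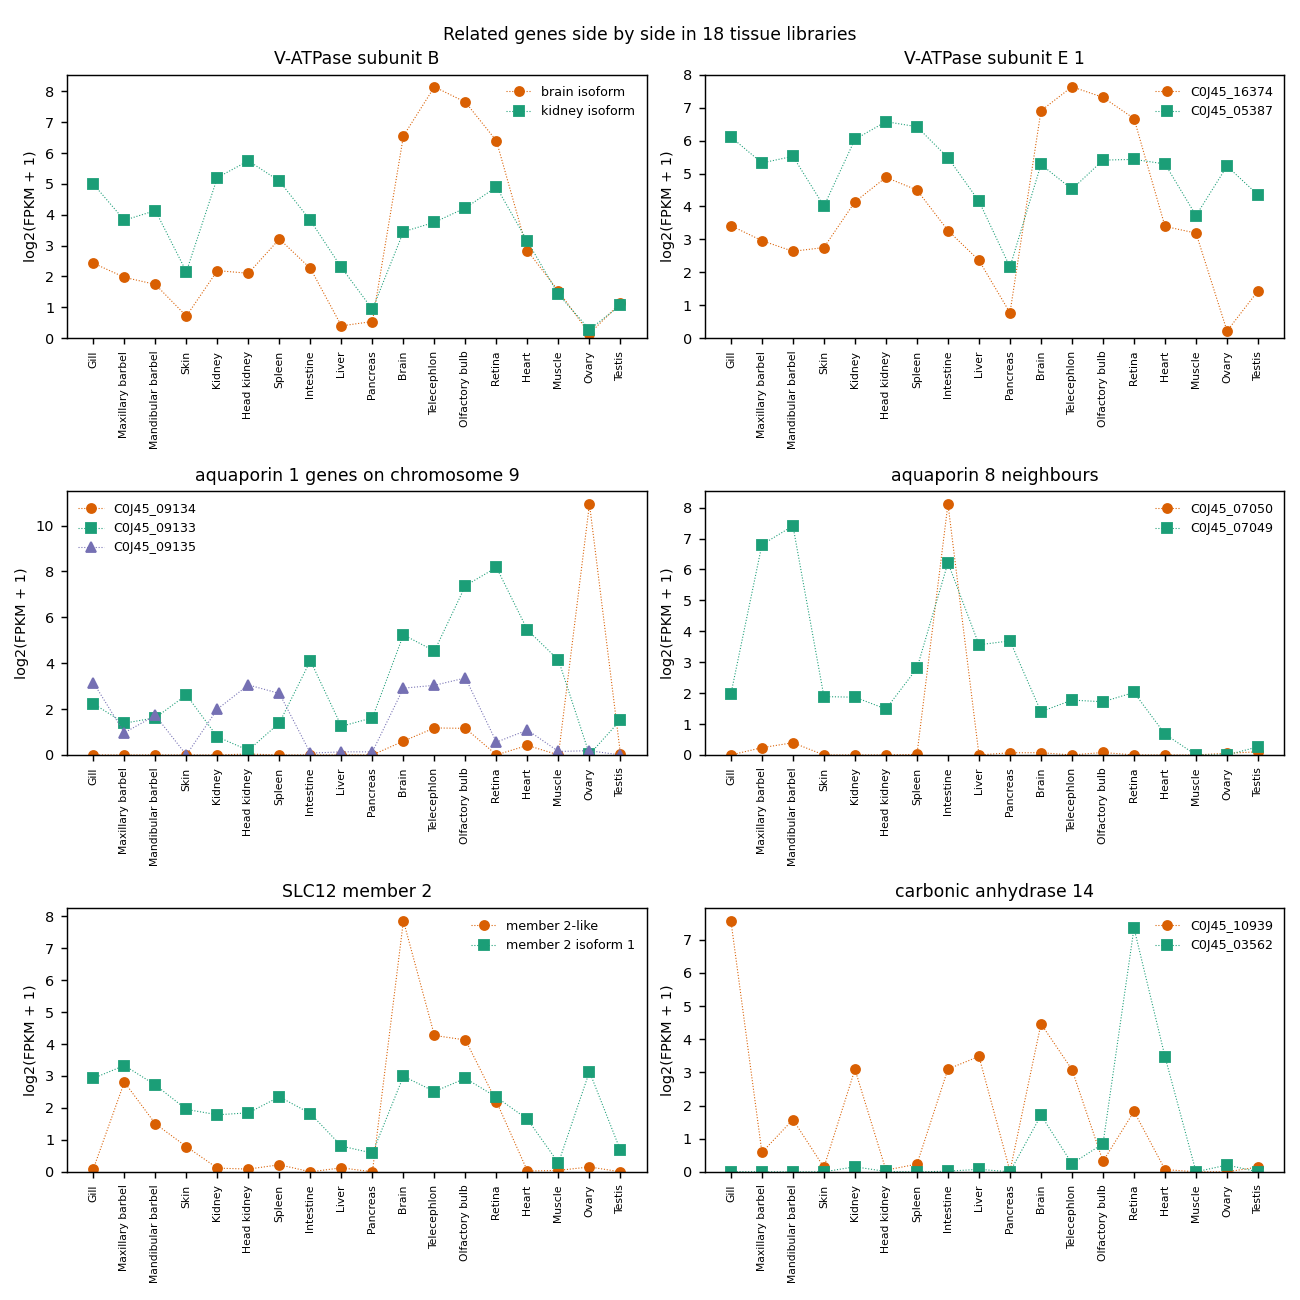
Related genes side by side, as log2(FPKM + 1) in each of the 18 tissue libraries, with dotted lines only to guide the eye. The brain isoform of subunit B and the gene C0J45_16374 of subunit E 1 lie above their partners in Brain, Telecephlon, Olfactory_bulb and Retina. C0J45_09134 stands alone in Ovary, and C0J45_07050 lies above C0J45_07049 in Intestine, where both are present. The SLC12 member 2-like gene lies above the other member 2 gene in Brain, and the carbonic anhydrase 14 genes part between Gill and Retina.

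Carbonic anhydrases held a pair of high, broad level and a set of further forms, several of them highest in a single tissue. The highest was a gene named only carbonic anhydrase (C0J45_18024; chromosome 20, 18125525 to 18129452, plus strand). It stood at 1295 FPKM in Head_kidney, 741 in Spleen, 648 in Kidney, 202 in Brain and 179 in Gill, with a median of 16.2 and a lowest value of 1.82 in Muscle. Head_kidney, Spleen, Kidney, Brain and Gill were the highest libraries for this gene and for hemoglobin. Below them the orders parted, with Heart at 0.760% hemoglobin and 20.4 FPKM of this gene, and Retina at 0.682% and 86.1 FPKM. Hemoglobin and alpha-globin genes took 33.9% of Head_kidney, 21.6% of Kidney and of Spleen, 1.89% of Gill and 1.304% of Brain, and 0.760% or less of every other library. All 4 red blood cell marker names had their highest level in Head_kidney. Erythroid 5-aminolevulinate synthase, which starts heme synthesis in red cells, stood at 908 FPKM there, 467 in Kidney, 439.6 in Spleen and 29.9 in Gill. Band 3 stood at 655, 365, 199.6 and 21.6 FPKM in the same tissues. Ammonium transporter Rh type A stood at 423, 226, 194 and 208 FPKM, and so was higher in Gill than in Spleen. Without C0J45_18024 the carbonic anhydrases summed to 586 FPKM in Retina and 454 in Gill, ahead of Brain at 251. The part of red cells in the level of this gene was not tested.

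**Figure D4:**
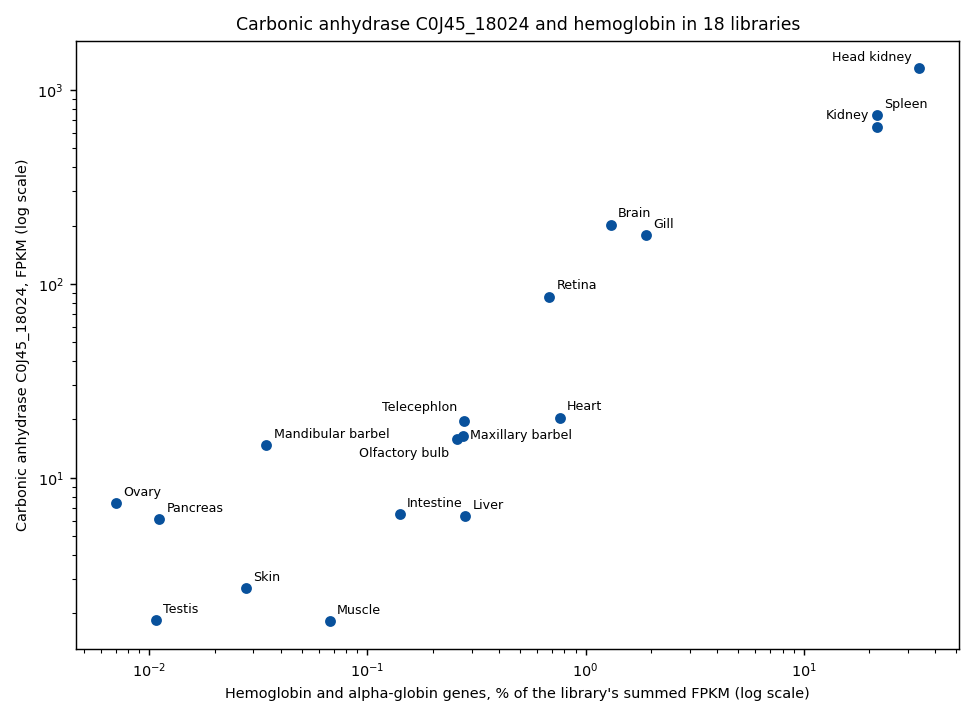
FPKM of carbonic anhydrase C0J45_18024 (vertical, log scale) against the share of the library's summed FPKM in 17 hemoglobin and alpha-globin genes (horizontal, in percent, log scale), 1 point per tissue library. Head_kidney, Spleen and Kidney stand apart at the upper right, with Brain and Gill next, and Muscle and Testis are the lowest on the vertical axis.

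The second gene named only carbonic anhydrase (C0J45_03656) was highest in Retina at 320.5 FPKM, followed by 131 in Gill, 104 in Olfactory_bulb, 74.0 in Brain and 71.9 in Kidney. The first reached 1 FPKM in all 18 tissues and the second in 15. Among the further forms, 2 genes named carbonic anhydrase 14, a form that spans the membrane with its active site outside the cell, were enriched in different tissues. C0J45_10939 stood at 189 FPKM in Gill and 21.1 in Brain, and C0J45_03562 at 162 in Retina and 10.1 in Heart. Carbonic anhydrase XVb (C0J45_06829) was enriched in Gill at 99.8 FPKM, against 3.52 in Mandibular_barbel and 1.55 in Maxillary_barbel.

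Carbonic anhydrase 4 forms are tied to the outer membrane face, and in mammals 1 such form works in the kidney tubule. The gene named carbonic anhydrase 4 (C0J45_13954) was enriched in Kidney at 37.3 FPKM, against 1.23 in Retina, and was listed at 0 in 10 tissues. Form IV b (C0J45_11270) stood at 48.9 FPKM in Intestine, 20.6 in Head_kidney and 10.2 in Kidney. Form IV a (C0J45_21260) stood at 65.7 FPKM in Heart, 51.7 in Brain and 40.5 in Olfactory_bulb, while its neighbour of the same name on chromosome 25 (C0J45_21259) did not exceed 1.32. The mitochondrial form 5A (C0J45_05462), which feeds bicarbonate to urea and glucose synthesis in mammals, stood at 87.3 FPKM in Liver and 23.4 in Mandibular_barbel. Form 6 (C0J45_14500), secreted in mammalian saliva, stood at 60.7 FPKM in Maxillary_barbel, 51.2 in Mandibular_barbel, 11.2 in Gill and 10.04 in Skin.

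Carbonic anhydrase-related proteins have the fold but not the activity of the enzymes, and 5 members carry that name. Of these, 4 were highest in Brain or Telecephlon, and 1 led by each of these tissues reached 10 FPKM. Of all genes that reached 10 FPKM, 4.51% were highest in Brain and 13.2% in Telecephlon. The gene named carbonic anhydrase-related protein (C0J45_11823) stood at 57.3 FPKM in Brain, 38.0 in Olfactory_bulb and 33.7 in Telecephlon, and C0J45_07427 stood at 27.8 in Telecephlon. Carbonic anhydrase-related protein 10 isoform X2 (C0J45_13320) departed from them with 114 FPKM in Ovary, against 39.0 in Telecephlon and 16.1 in Retina.

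Some single aquaporin genes differed sharply between tissues. The gene named aquaporin 1a tandem duplicate 2 (C0J45_09134; chromosome 9, 21566230 to 21569683, plus strand) stood at 1966 FPKM in Ovary, against 1.26 in Telecephlon and 1.23 in Olfactory_bulb, and was listed at 0 in 10 tissues. In FPKM + 1, Ovary was 869.6 times Telecephlon, and this gene was 99.9% of the aquaporin level of Ovary. An ovarian aquaporin 1 of gilthead seabream is known to take water into the ripening egg. Its neighbours on the same strand were not ovarian. C0J45_09133, which ends 4300 bp before it, stood at 288 FPKM in Retina, 165 in Olfactory_bulb, 42.6 in Heart and 0.0149 in Ovary. C0J45_09135, which starts 3551 bp after it, did not exceed 9.25 FPKM, in Olfactory_bulb, and was at 0.137 in Ovary. A further gene model named aquaporin 1 (C0J45_24681), short and on an unplaced scaffold, had the order of C0J45_09133 in its first 2 tissues, with 157 FPKM in Retina and 75.4 in Olfactory_bulb. Such like-named copies can share reads.

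Aquaporin 3a (C0J45_22499), which passes glycerol as well as water, was highest in both barbels, followed by Gill. It stood at 1388 FPKM in Maxillary_barbel, 1265 in Mandibular_barbel and 305 in Gill, against 38.8 in Head_kidney, 38.3 in Skin and a median of 3.98. The barbels and Gill stood well above the other tissues, and Skin, also a surface in contact with water, did not. Skin was the shallowest library and also held 344 FPKM of skeletal muscle myosin light chain, against 52192 in Muscle. The part of muscle in the Skin values was not tested.

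The aquaporin 8 genes lie side by side on chromosome 7, separated by 2224 bp. Aquaporin-8 (C0J45_07050) was at 277 FPKM in Intestine and at no more than 0.315 elsewhere. Aquaporin 8a tandem duplicate 1 (C0J45_07049) was highest in Mandibular_barbel at 169 FPKM, followed by 110.3 in Maxillary_barbel and 73.4 in Intestine. Both were present in Intestine, and only the second reached 1 FPKM in the barbels. Aquaporin-10 (C0J45_23282), a glycerol-passing form of the human gut, stood at 34.2 FPKM in Intestine, 7.15 in Kidney and 6.63 in Liver.

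Retina led 5 aquaporins that reached 10 FPKM, where 8.57% of all such genes were highest in Retina, and 3 of the 5 were enriched there. The 5 include C0J45_09133 and the short model C0J45_24681, both named aquaporin 1, which may not be separate genes. Aquaporin-9 (C0J45_21787) stood at 89.6 FPKM and aquaporin 9a (C0J45_09666) at 45.8 in Retina, with no other tissue above 0.0655 and 0.689 FPKM. Aquaporin-4 (C0J45_19922), the water channel of glia in mammals, stood at 158 FPKM in Retina and 8.85 in Spleen, but at 0.0578 in Brain, 0.0124 in Telecephlon and 0.00699 in Olfactory_bulb. None of the 3 genes named aquaporin-4 or aquaporin-4-like exceeded 0.484 FPKM in those 3 brain libraries. In Liver, aquaporin-7 (C0J45_19181), a glycerol channel, stood at 91.4 FPKM against 7.17 in Spleen, and aquaporin-11 (C0J45_12469) at 64.7 against 30.7 in Retina. The gene named aquaporin-like (C0J45_08637), which the deposited annotation places with aquaporin 12, stood at 132 FPKM in Pancreas and 28.5 in Liver. Aquaporin 12 is the channel of pancreatic acinar cells in mammals.

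Of the carriers that take up salt in the kidney tubule, SLC12 member 1 (C0J45_11934), the apical sodium-potassium-chloride cotransporter, stood at 201 FPKM in Kidney and at no more than 0.748 in the other tissues. SLC12 member 3 (C0J45_12244), the thiazide-sensitive sodium-chloride cotransporter, stood at 101 FPKM in Kidney, against 2.79 in Spleen and 2.15 in Gill. Both were tissue-enriched. Beside them, SLC12 member 2-like (C0J45_15445), of the secretory cotransporter type, was enriched in Brain at 231 FPKM, against 18.3 in Telecephlon and 16.5 in Olfactory_bulb. The other member 2 gene (C0J45_10902) was even by comparison, at 9.04 FPKM in Maxillary_barbel and 7.80 in Ovary. SLC12 member 5 (C0J45_00465), which keeps chloride low in neurons, stood at 38.4 FPKM in Telecephlon, 26.5 in Olfactory_bulb, 13.5 in Brain and 9.60 in Retina, with 0.748 or less elsewhere. SLC12 member 9 (C0J45_21521) was at 27.1 FPKM in Gill and 19.1 in Kidney.

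Of the 3 SLC26 anion exchangers among the members, 2 were enriched in Kidney. This pair, both named SLC26 member 6, lies on chromosome 17 with 4442 bp between the genes. C0J45_15691 stood at 121 FPKM and C0J45_15690 at 42.4 in Kidney, and the next values were 0.142 in Head_kidney and 0.707 in Liver. Like-named neighbours can share reads, so the level of each copy is uncertain, and both count among the 6 members enriched in Kidney. Member 10 (C0J45_14440) stood at 27.7 FPKM in Head_kidney, 20.4 in Kidney and 10.7 in Spleen, the 3 libraries richest in hemoglobin. Genes worded otherwise extended the family. Pendrin (C0J45_16220), a chloride-bicarbonate exchanger, stood at 307 FPKM in Kidney against 15.2 in Gill, and its chromosome 18 neighbour SLC26 member 3 (C0J45_16219) at 60.9 in Intestine against 0.651 in Pancreas.

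The SLC4 and SLC9 families exchange bicarbonate and protons. SLC4 member 1b (C0J45_06740; chromosome 7, 1670298 to 1680708, minus strand), a chloride-bicarbonate exchanger, stood at 90.03 FPKM in Gill and 20.5 in Kidney, with no other tissue above 0.258. SLC4 member 2b (C0J45_18264) stood at 14.6 FPKM in Gill and 13.97 in Mandibular_barbel, and member 3 (C0J45_03130) at 11.97 in Telecephlon. Sodium/hydrogen exchanger 9B2 (C0J45_22706) was enriched in Retina at 119 FPKM, against 18.8 in Liver, and its 9B2-like relative (C0J45_15052) in Intestine at 58.5, against 7.68 in Kidney. The sodium/hydrogen exchangers 6 (C0J45_05035) and 8 (C0J45_14298) were spread over many tissues, with highest values of 17.6 FPKM in Telecephlon and 15.5 in Gill and medians of 5.36 and 6.64. None of the 9 SLC9 members reached 1 FPKM in every tissue. Exchanger 7 (C0J45_00944), of the Golgi, reached 12.7 FPKM in Retina.

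Here too, genes worded otherwise changed the order of tissues. The product name for SLC9 member 3, the apical exchanger of the mammalian kidney tubule, has a comma after the 9. It was left out for that reason alone. That gene (C0J45_23322) stood at 135 FPKM in Gill and 59.0 in Kidney. Band 3 (C0J45_12960), the anion exchanger of red cells, stood at 655 FPKM in Head_kidney, 365 in Kidney and 199.6 in Spleen. Electrogenic sodium bicarbonate cotransporter 1 (C0J45_22527) stood at 197 FPKM in Brain and 60.6 in Intestine, and a second gene of that name (C0J45_13687) at 44.99 in Gill. With them added, Gill led SLC9 at 196 FPKM in place of Retina, and Head_kidney led SLC4 at 690.2 in place of Gill. With genes worded otherwise added, Brain still led the Na,K-ATPase, Telecephlon the V-type proton ATPase and Kidney SLC26. The lead of Brain depends on the deposited gene models. Carbonic anhydrases gained no gene, and the 1 aquaporin and 1 SLC12 gene added did not exceed 1.46 and 0.341 FPKM.

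Near the ratio of 5 that called tissue-enriched genes, the members just below it were SLC4 member 1b (4.23 in Gill), aquaporin-10 (4.32 in Intestine) and aquaporin-like (4.51 in Pancreas). Just above it were sodium/hydrogen exchanger 9B2 (6.05 in Retina), 9B2-like (6.85 in Intestine) and carbonic anhydrase 14 C0J45_10939 (8.61 in Gill).

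Gill and Kidney were set side by side because both move salt between fish and water in fresh water. Of the 93 members, 55 had an FPKM of at least 5 in Gill or Kidney, and differences are log2 ratios of FPKM + 1, which understate the change of low genes. At least 4-fold apart, 5 members were higher in Gill (9.09% of those compared, where 9.86% of all genes were) and 11 lower in Gill (20%, where 8.15% of all genes were). The median log2 ratio was -0.23 over the 55 members and 0.18 over all genes compared, so each value below may be read against 0.18.

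Gill was higher in carbonic anhydrases XVb, 14 and 6, aquaporin 3a and SLC4 member 1b. Carbonic anhydrase XVb stood at 99.8 FPKM in Gill and 0.0125 in Kidney (log2 ratio 6.64), and carbonic anhydrase 14 C0J45_10939 at 189 and 7.52 (4.48). Aquaporin 3a stood at 305 FPKM in Gill and 30.1 in Kidney (3.30). SLC4 member 1b passed narrowly, at 2.08.

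Gill was at least 4-fold lower in 3 of the 9 SLC12 genes compared, in all 3 SLC26 genes and in the gamma subunit. SLC12 member 1 stood at 0.0792 FPKM in Gill and 201 in Kidney (-7.55), and SLC26 member 6 C0J45_15691 at 0.0423 and 121 (-6.87). The gamma subunit stood at 25.4 FPKM in Gill and 709.8 in Kidney (-4.75). Carbonic anhydrase 4 had a log2 ratio of -5.23, SLC12 member 3 of -5.01, SLC26 member 10 of -3.57, carbonic anhydrase IV a of -3.30, SLC12 member 8 of -2.23 and sodium/hydrogen exchanger 1 (C0J45_19684) of -2.15. Of the 6 SLC12 genes less than 4-fold apart, member 4 C0J45_21918 (1.55) and member 2 C0J45_10902 (1.14) were among those above Kidney in Gill. Aquaporin-10 was listed at 0 in Gill and stood at 7.15 FPKM in Kidney. None of the 19 subunits of the V-type proton ATPase compared was 4-fold apart, and their log2 ratios ran from -0.90 to 0.33.

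Intestine against Kidney gave 8 members higher in Intestine (15.1% of 53 compared, where 7.09% of all genes were) and 12 lower in Intestine (22.6%, where 8.92% of all genes were). The Intestine library had an estimated 22400000 fragments and the Kidney library 48200000, so tissue and depth cannot be told apart. The median log2 ratio of all genes was -0.24. Of the 8 genes higher in Intestine, 5 were aquaporins. Aquaporin-8 stood at 277 FPKM in Intestine and was listed at 0 in Kidney, and aquaporin 8a tandem duplicate 1 at 73.4 and 2.65 (log2 ratio 4.35). C0J45_09133 stood at 16.3 FPKM in Intestine and 0.729 in Kidney (3.32). Sodium/hydrogen exchanger 9B2-like (2.78), carbonic anhydrase 7 (C0J45_21739, 2.42) and carbonic anhydrase IV b (2.16) were the others.

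Intestine was lower in the gamma subunit (-8.05), SLC12 members 1 (-7.50) and 3 (-5.74), SLC26 members 6 (C0J45_15690, -5.41) and 10 (-4.21), SLC4 member 1b (-4.39) and aquaporin 3a (-3.06). SLC26 member 6 C0J45_15691 and carbonic anhydrase 4 were listed at 0 in Intestine. Carbonic anhydrase C0J45_18024 stood at 6.52 FPKM in Intestine and 648 in Kidney (-6.43), beside hemoglobin shares of 0.141% and 21.6%. The V-type proton ATPase again showed no 4-fold difference among 19 genes.

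Gill against Maxillary_barbel compared a respiratory with a sensory surface, both in contact with water. Of 43 members compared, 7 were higher in Gill (16.3%, where 8.67% of all genes were) and 5 lower in Gill (11.6%, where 3.63% of all genes were). Here, too, the libraries differ in depth, at an estimated 51000000 fragments in Gill and 22600000 in Maxillary_barbel, and the median log2 ratio of all genes was 0.31. Carbonic anhydrases made up 4 of the 7 genes higher in Gill: form 14 C0J45_10939 (log2 ratio 6.99), XVb (5.30), C0J45_03656 (5.01) and C0J45_18024 (3.36). The last stood at 179 FPKM in Gill and 16.5 in Maxillary_barbel, beside hemoglobin shares of 1.89% and 0.274%. SLC4 member 1b stood at 90.03 FPKM in Gill and 0.184 in Maxillary_barbel (6.26), and the gamma subunit (3.25) and aquaporin C0J45_09135 (2.19) were also higher.

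Gill was lower than Maxillary_barbel in aquaporin 8a tandem duplicate 1 (-4.83), Na,K-ATPase alpha-1 C0J45_02847 (-4.23), SLC12 member 2-like (-2.72), carbonic anhydrase 6 (-2.34) and aquaporin 3a (-2.18). The Gill and Kidney libraries each serve in more than 1 of these pairs, so the pairs are not independent. In none of the 3 pairs was a V-type proton ATPase gene 4-fold apart.

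**Figure D5:**
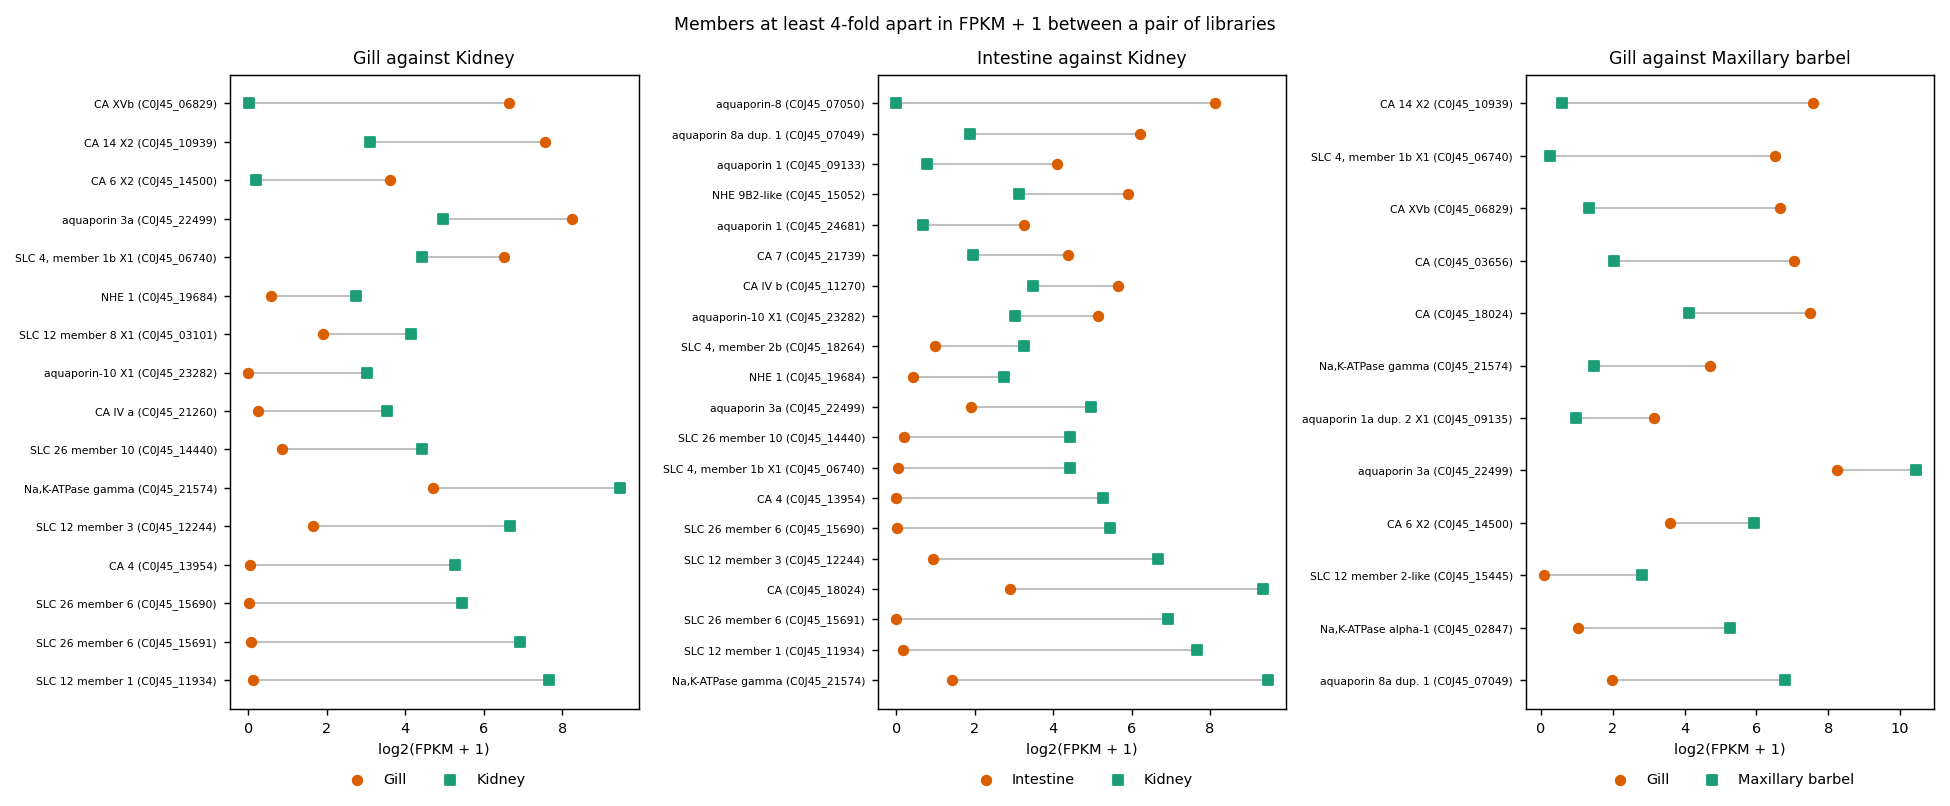
Members at least 4-fold apart in FPKM + 1 in each of 3 pairs of libraries, as log2(FPKM + 1) with a grey line joining the values of a gene (circles for the library named first in the panel title, squares for the other). The Gill and Kidney panel has 5 genes higher in Gill and 11 lower, the Intestine and Kidney panel 8 higher in Intestine and 12 lower, and the Gill and Maxillary_barbel panel 7 higher in Gill and 5 lower.

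Partner genes of these pumps and carriers were taken from a list of 28 names (regulators, channels, ammonia carriers, kinases, scaffolds and hormones). Of these, 26 names matched 61 genes, 49 of which reached 10 FPKM (80.3%, against 60.2% of all genes), and 11 were tissue-enriched (18.03%, against 7.51% of all genes). Of the 11, Retina held 4, Kidney 3, Brain 2, and Gill and Intestine 1 each, where 1.21%, 0.280%, 0.209%, 0.461% and 0.650% of all genes were enriched. The 4 in Retina include C0J45_05311 and C0J45_25042, both named plasma membrane calcium-transporting ATPase 3, which may be parts of the same gene. The 61 overlap the genes worded otherwise: band 3, anion exchange protein 2, pendrin, prestin, 4 electrogenic sodium bicarbonate cotransporters and 3 renin receptors are in both. Enriched among these were pendrin and 2 of the cotransporters (C0J45_10702 and C0J45_19024, in Retina). The 2 enriched genes found by the name calcitonin are named calcitonin gene-related peptide 2. Ammonium transporter Rh type B (C0J45_04094) stood at 1086 FPKM in Gill and 22.6 in Kidney. Forkhead box protein I1 (C0J45_04968), the ionocyte regulator, stood at 35.9 FPKM in Gill, 8.91 in Kidney, 6.81 in Mandibular_barbel and 2.18 in Maxillary_barbel. Both were thus highest in Gill, as were carbonic anhydrase XVb and SLC4 member 1b. Rh type C-like 2 (C0J45_09915) was also highest in Gill, at 232 FPKM. Rh type A (C0J45_20114) was highest in Head_kidney at 423 FPKM, against 208 in Gill. Forkhead box protein I3 (C0J45_01696) was listed at 0 in Gill and Kidney and did not exceed 1.21 FPKM, in Heart. The calcium channel TRPV6 (C0J45_03837) stood at 31.4 FPKM in Gill, 19.4 in Kidney, 10.3 in Mandibular_barbel and 3.90 in Maxillary_barbel.

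In Kidney, chloride channel ClC-Ka (C0J45_14521), the basolateral exit for chloride in the mammalian tubule, stood at 95.045 FPKM against 0.243 in Heart, and its subunit barttin (C0J45_19899) at 12.1 against 0.389 in Muscle. Both prolactin receptor genes led in Kidney, at 23.4 FPKM (C0J45_13585) and 16.2 (C0J45_22445), with 5.73 and 4.80 in Gill. The chloride channel CFTR (C0J45_12303) reached 6.76 FPKM in Kidney and 5.60 in Intestine. Scaffold NHE-RF3, which holds exchangers at the brush border, stood at 405 FPKM (C0J45_02807) in Intestine and 229 in Kidney.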

How the data were processed

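Per the labels' protocols, total RNA was extracted with Trizol, treated with DNase, selected for polyA RNA and made into paired-end libraries. Per the submitters' processing notes, the authors ran StringTie 1.3.4d. Neither an aligner nor a build is stated. The authors' deposited FPKM, scaled to gene length and to each library's depth, cover 25390 genes in 18 columns named for their tissues. A second deposited table gave protein names and coordinates, printed as it has them. Members were chosen by its product names, and gave 93 genes.

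FPKM are not counts and there is 1 library per tissue, so no test was run and genes were named by fixed rules of size. Those rules took the 5 highest members of each family, every tissue-enriched member, up to 10 members per direction in each pair of tissues, members next to the ratio of 5, and a list of partner genes. The pseudocount was 1, pairs needed an FPKM of 5 in either library, and 4-fold is a log2 ratio of 2. Tau was computed on log2(FPKM + 1). Members and lists were chosen with earlier results of these data known, and genes worded otherwise, related pairs and any further gene named were chosen after values were seen.

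Multiplying FPKM by coding length gives values in steps, and the most common value was taken as the step of 1 fragment to estimate depth. Depth limits low values: by this estimate, 1 fragment on a 1 kb gene is 0.158 FPKM in Skin and 0.0196 in Gill. Between 10% and 21.5% of low values were whole multiples of that step (tolerance 0.02 steps), too few to turn FPKM back into reads, and counting intervals are left out. The FPKM of a library summed to between 457883 (Brain) and 1006540 (Pancreas). On simulated data, the rules recovered 200 of 200 genes made 20 times higher in 1 tissue. They also recovered 200 of 200 made 8 times higher in Gill than Kidney, with 0 other genes called among 25390. Those sizes lay above the limits of 5 times and 4-fold, so the recovery checks only that the rules ran as written. It gives no rate of missed or false calls in the real libraries. Python 3.11.15, numpy 2.4.6, pandas 2.3.3 and matplotlib 3.10.9 were used.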

Additional observations from a re-analysis of the deposited data

How the results depend on the processing

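Of 38 alternatives, 37 left their count within 1.5 times the reported one. Tissue-enriched members numbered 15 with a ratio of 10 and 22 with libraries scaled to the same upper quartile, against 18 as reported. Of all genes, 4.51% were called with a ratio of 10, 12.04% with that scaling and 7.51% as reported. That scaling kept 16 of the 18 members and added 6. Scaled so, carbonic anhydrase 14 C0J45_10939 and sodium/hydrogen exchanger 9B2 were no longer called, with ratios of 4.55 and 1.94, and SLC4 member 1b was gained, at 5.30, with libraries scaled to the same sum. A further alternative left out 8 mitochondrial and 17 hemoglobin or alpha-globin genes and scaled the rest to the same sum. It called 18 members, where 7.05% of all genes kept were called. This alternative and the adding of genes worded otherwise were chosen after seeing the data. When the highest member of each family was left out, only 4 of 8 families kept their leading tissue: the Na,K-ATPase was then led by Kidney, carbonic anhydrases by Retina, aquaporins by Maxillary_barbel and SLC9 by Intestine. Scaled to the same sum, SLC12 was led by Brain in place of Kidney. No paired analysis was possible because each tissue has 1 library, and for the same reason no replicate could be left out. The shallow Skin and Muscle libraries limit what can be said of low members there. Without both, 18 members were called, where 7.61% of all genes were.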
